A study of Mus musculus with 2 samples.

Results

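The cells described here were fibroblast-like cells that came along with isolated mouse pancreatic islets, the hormone-secreting cell clusters of the pancreas. They were chosen by measured values. A cell barcode was taken when it held at least 500 detected genes and at most 10% mitochondrial transcripts, when Dcn, Lum and Clec3b together made up at least 0.3% of its unique molecular identifiers (UMIs, 1 per captured transcript), when the hormone transcripts Ins1, Ins2, Gcg, Sst, Ppy, Pyy and Iapp together stayed under 10%, and when the C1q genes of macrophages and 5 endothelial genes each summed to under 0.3%. This rule found 913 of the 13446 barcodes within the limits on genes and mitochondrial transcripts, 261 in wild-type (WT) and 652 in ghrelin knockout (GKO) islets, and they are called fibroblast-rule cells below.

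Ghrelin is a peptide hormone made mainly by the stomach, and the study asked how islets differ in mice that lack it. Islets were taken from 8-week-old, freely fed C57BL/6N littermates, either WT or homozygous GKO, which carry the deletion in all tissues. Islets of 4 mice were pooled for each genotype, handpicked, dispersed, sorted for live single cells and sequenced with 3′ droplet chemistry, which gave 1 WT and 1 GKO library. The libraries held 158067110 and 103511757 UMIs, of which 2656713 and 5694748 belonged to fibroblast-rule cells. With a single pooled library per genotype there was no replicate and no test between genotypes, so all differences below are values, and the 95% intervals given with them (exact Poisson for ratios, exact Clopper-Pearson for shares) cover counting error only and not differences between mice or between preparations.

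Pancreatic stellate cells are mesenchymal cells that lie around acini and islets. In the resting state they store retinoids in lipid droplets, and once activated they lose these stores, proliferate and lay down fibrillar collagen, much like fibroblasts elsewhere. Fibroblasts of many organs form a continuum between adventitial cells, which sit in the sheaths of vessels and ducts, and parenchymal cells, which lie among the epithelial or endocrine cells. Pericytes and smooth muscle cells, together called mural cells, wrap vessels and share contractile genes with activated fibroblasts, or myofibroblasts.

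Fibroblast-rule cells made up 3.68% of the WT barcodes (95% interval 3.25 to 4.14) and 10.3% of the GKO barcodes (9.54 to 11.0). Shares of this kind depend on how many fibroblasts stay attached to picked islets and on which cells live through dispersion and sorting, and these cannot be told apart from genotype with 1 pool each. Depth per cell was close in the 2 libraries, with a median of 9238 UMIs and 2809 genes in WT and of 8537.5 UMIs and 2775.5 genes in GKO. Mitochondrial transcripts had a median of 2.80% and 2.99%, and hormone transcripts, which these cells should not make, had a median of 0.592% and 0.579%. Free RNA, from outside the cell, was estimated at a share of 0.190 in WT and 0.107 in GKO. The estimate takes every hormone UMI of these cells as free RNA. The 10% of cells with the most hormone UMIs held 37.6% of them in WT and 32.5% in GKO, so the shares may be too high. The free profiles held 4.18% and 6.43% hormone transcripts. This estimate was used only in the alternative that subtracts free RNA, so shares of cells with a UMI are not corrected for it. The libraries shared 18 barcodes, none of them a fibroblast-rule cell.

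The selecting sum had no gap at its limit. The highest barcode left out for it stood at 0.292% in WT and 0.286% in GKO, and the lowest one taken at 0.316% and 0.301%. Few barcodes lay near the limit, 7 WT and 18 GKO from 0.2 to 0.3% and 8 WT and 34 GKO from 0.3 to 0.4%. The median sum over cells was 1.26% for WT and 1.72% for GKO. Of the barcodes with enough of these markers, 20 WT and 36 GKO were left out for their hormone transcripts, 2 and 4 for C1q genes and 4 and 2 for endothelial genes.

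**Figure D1:**
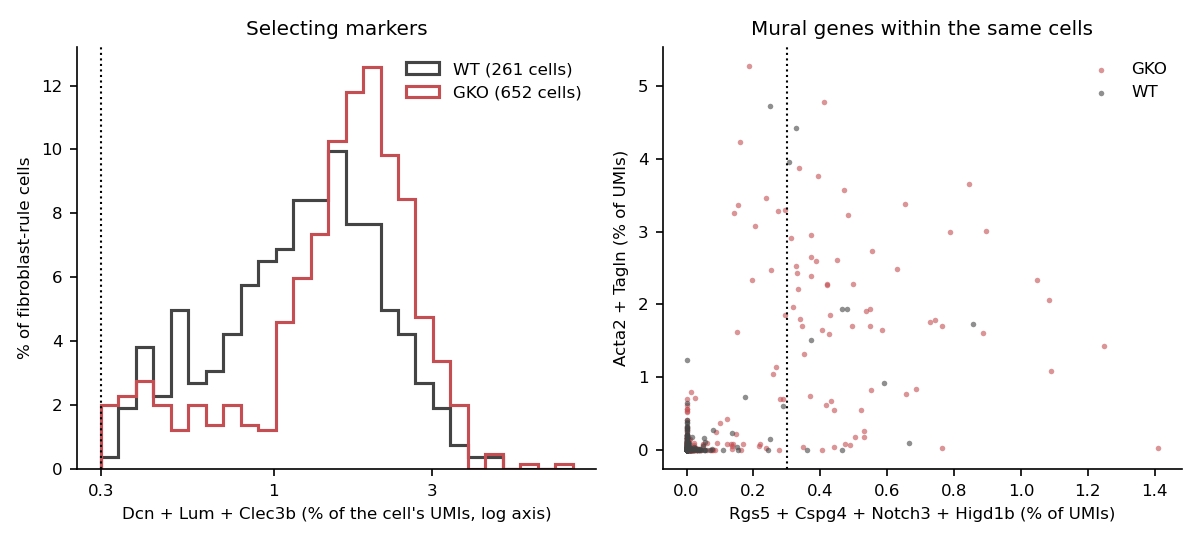
Left, the share of fibroblast-rule cells (percent) by the sum of Dcn, Lum and Clec3b as a percent of the cell's UMIs on a log axis, for 261 WT and 652 GKO cells, with the 0.3% limit dotted. Right, each cell's Acta2 and Tagln share against its share of the pericyte genes Rgs5, Cspg4, Notch3 and Higd1b, both in percent of UMIs. Most cells lie near 0 for the mural genes, and 10 WT and 61 GKO cells lie at or past the dotted line at 0.3%.

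The label of these cells as fibroblast-like was checked against the 5 markers given with the rule. Levels are UMIs per 1000000 UMIs (CPM) of the summed cells. Dcn, encoding the collagen-binding proteoglycan decorin, was found at 10544 CPM in the WT sum and 14261 in that of GKO. Lum, encoding lumican, another small proteoglycan, stood at 1217 and 1355 CPM, and Clec3b, encoding the plasminogen-binding protein tetranectin, at 773 and 967 CPM. These 3 genes selected the cells. Col1a1, encoding the main chain of type I collagen, was not in the rule and stood at 3932 and 3105 CPM, and Serpinf1, encoding pigment epithelium-derived factor, at 1007 and 1138 CPM. After each cell was thinned to 2000 UMIs, which kept 252 WT and 613 GKO cells and left out 9 and 39 shallower ones, Col1a1 had a UMI in 94.4% of WT and 90.7% of GKO cells, against 0.506% of WT and 0.532% of GKO hormone-rule cells (hormones at least 25% of UMIs) at the same depth.

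Genes linked with activation gave mixed values. The study named its activated stellate cells by Pdgfra, Sparc and C3. In fibroblast-rule cells Pdgfra stood at 252 and 242 CPM, Sparc, encoding a collagen-binding matrix protein, at 9864 and 9842 CPM and C3, encoding the central complement component, at 1348 and 1553 CPM, and Sparc was also found at 4166 and 4660 CPM in pericyte-rule cells. The fibrillar collagen gene Col3a1 stood at 6565 and 5644 CPM. Genes of retinoid storage and of the stellate cell were described as a list, and of the 15 with at least 20 UMIs over both libraries, 10 were higher and 5 lower in GKO (median log2 ratio 0.10). Vim, encoding the filament protein vimentin, was ample at 2820 and 3015 CPM. Lrat, whose enzyme stores retinol as ester and which marks resting stellate cells, was nearly absent at 11.3 and 1.05 CPM. Of the myofibroblast genes, Acta2, encoding smooth muscle actin, stood at 657 and 1234 CPM and had a UMI in 27% of WT and 23.7% of GKO thinned cells, and the whole contractile and myofibroblast list made up more than 0.1% of UMIs in 76.2% of WT and 66.6% of GKO cells. Cthrc1, a gene of scar-forming fibroblasts, stood at 4.14 and 1.58 CPM.

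Contractile genes stood far higher in a small set of cells with mural genes than in the rest. A sum of the pericyte genes Rgs5, Cspg4, Notch3 and Higd1b of at least 0.3% of UMIs was found in 10 WT cells (3.83%) and 61 GKO cells (9.36%). Acta2 stood at 9994 CPM in those 10 WT cells against 401 CPM in the other 251, and at 9124 CPM in the 61 GKO cells against 541 CPM in the other 591. Tagln, encoding the actin-binding protein transgelin, showed the same split, with 9825 against 338 CPM in WT and 9659 against 453 CPM in GKO. The mural-gene cells had less of the fibroblast genes. Dcn was 4490 against 10710 CPM in WT and 4921 against 15082 CPM in GKO, and Pdgfra, encoding the receptor that marks fibroblasts, was 14.1 against 259 CPM and 17.4 against 262 CPM. Their Rgs5 level, 3730 CPM in WT and 4597 CPM in GKO, was below the 10523 and 10850 CPM of pericyte-rule cells. Pericyte-rule cells passed the pericyte sum but stayed under the limit for Dcn, Lum and Clec3b, at up to 0.276% in WT and 0.286% in GKO. By construction the mural-gene cells carried mural and fibroblast transcripts together, since each had to pass both sums. Scores for doublets, barcodes holding more than a single cell, placed 7 WT cells (2.68%) and 29 GKO cells (4.45%) in the called fraction, and the part of doublets in this set was not tested.

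To see which genes set these cells apart, their summed levels were compared with 4 other groups of islet cells taken by their own marker sums, namely 173 WT and 320 GKO pericyte-rule cells, 554 and 422 endothelial-rule cells, 194 and 447 macrophage-rule cells and 4942 and 3383 hormone-rule cells. Since all groups were drawn from the measured transcripts, this is a description without a test. Clec3b and Lum were high by construction. Genes with at least 200 CPM in both libraries were ordered by their ratio to the highest other group, and outside the rule Igfbp6 led, encoding an insulin-like growth factor binding protein that prefers IGF-II, at 1179 and 1417 CPM. The highest of the other groups held 1.34 CPM of it in WT and 3.17 CPM in GKO, and WT pericyte-rule cells had 0 UMIs, which allows up to 3.70 CPM. Inmt, encoding a methyltransferase of indole amines, followed at 376 and 486 CPM, and Dpep1, encoding a membrane dipeptidase, at 410 and 546 CPM.

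Several of the remaining places went to genes of secreted and matrix products, which were not counted against a background. Mfap4 and Fbln1, encoding microfibril-associated and fibulin proteins, stood at 987 and 500 CPM and at 967 and 934 CPM. Penk, encoding the opioid precursor proenkephalin, was at 559 CPM in WT and 834 CPM in GKO, Gdf10, encoding a growth factor of the bone morphogenetic protein family, at 466 and 614 CPM, and Ptn, encoding the heparin-binding growth factor pleiotrophin, at 1874 and 2104 CPM. Pdgfra was among the 15 leading genes at 252 and 242 CPM, and the highest of the other groups held 1.23 CPM in WT (1 UMI in pericyte-rule cells) and 0.68 CPM in GKO, where the 0 UMIs of pericyte-rule cells allow up to 1.87 CPM.

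**Figure D2:**
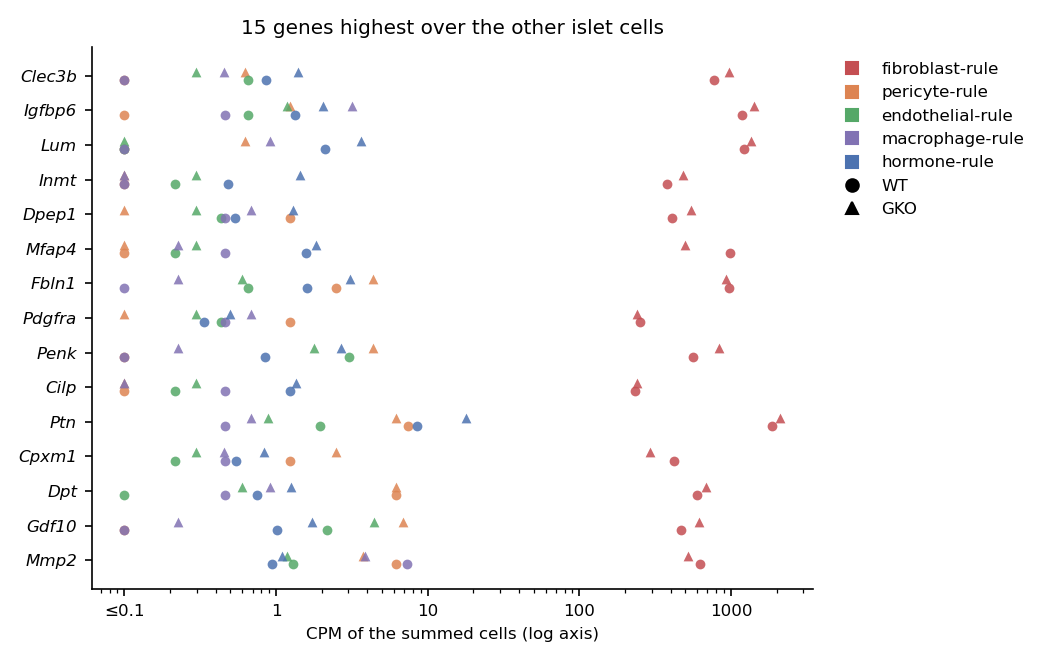
CPM of the summed cells on a log axis for the 15 genes that stood highest over the other islet cells among those with at least 200 CPM in both libraries, with colours for the cell group, circles for WT and triangles for GKO. Values at or under 0.1 CPM, 0 included, are drawn at 0.1. Fibroblast-rule cells stand apart for every gene, from 235 CPM for Cilp in WT to 2104 CPM for Ptn in GKO.

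For the comparison of genotypes, UMIs were summed over the fibroblast-rule cells of each library. A gene entered when it reached 50 CPM in at least 1 library and 200 UMIs over both, which 3070 genes did, and it was counted when GKO and WT differed at least 2-fold. By this size rule 37 genes (1.21%) were higher in GKO and 36 genes (1.17%) were lower. With TMM factors, which scale the libraries by the bulk of their genes, the counts were 28 and 42. The median log2 ratio over these genes was 0.09, and 1981 of the 3070 were above 0. Over all 11557 genes with at least 20 UMIs the median was 0.10, with 7095 higher and 4462 lower. The gene lists below were read against that background, and a share of higher genes near it is no result about a list. The quartiles over the 3070 genes were -0.09 and 0.27.

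**Figure D3:**
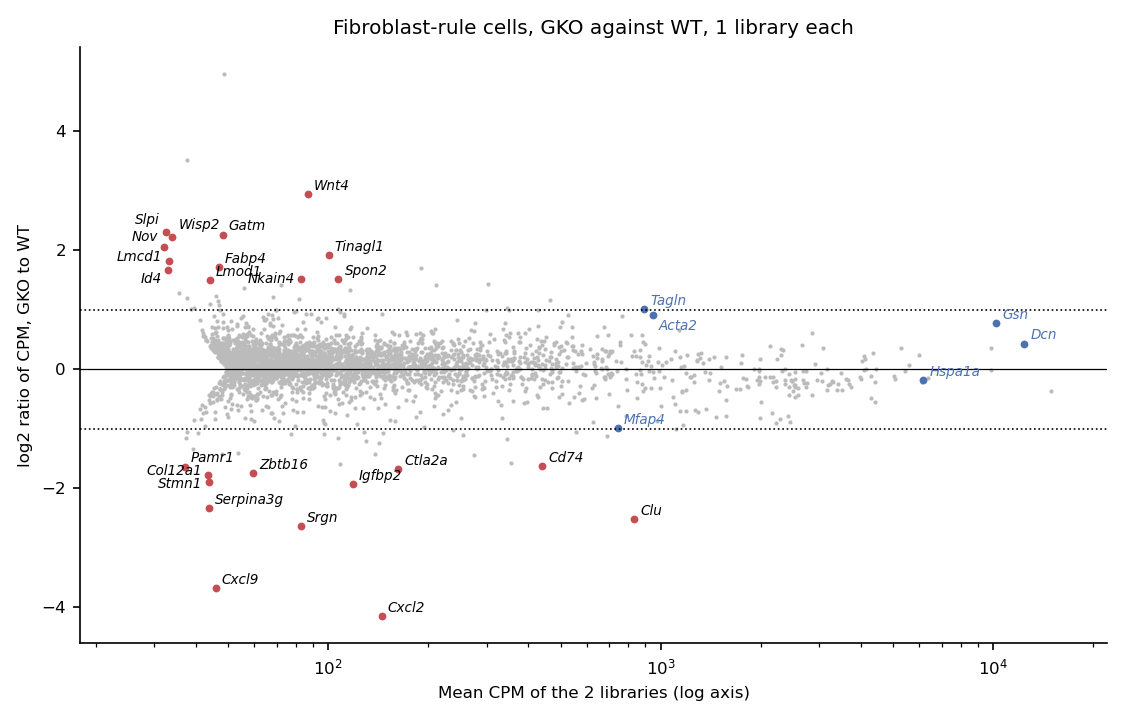
The log2 ratio of CPM, GKO to WT, against the mean CPM of the 2 libraries on a log axis, for the 3070 genes of the comparison. Red points are the 12 genes with the largest and the 12 with the smallest ratio by the naming rule, blue points are further genes of the text, and dotted lines mark 2-fold. Ccl21a and Pnoc lie outside the axis and are not drawn, and Wnt4 at 2.95 and Cxcl2 at -4.15 lie farthest from 0 among the named genes.

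Wnt4 (ENSMUSG00000036856), encoding a secreted Wnt ligand, had the largest ratio of the genes named by the rule, with 53 UMIs in WT and 875 in GKO cells, or 19.9 and 154 CPM (log2 ratio 2.95, 95% interval 2.54 to 3.37). Hormone-rule cells carried it at 171 and 175 CPM. Pericyte-, endothelial- and macrophage-rule cells held little of it, and no more in GKO, with 7.40 and 3.74, 8.66 and 5.94, and 8.25 and 4.08 CPM. Much of the signal came from few cells. The 5 highest of the 261 WT cells held 62.3% of the Wnt4 UMIs, and the 5 highest of the 652 GKO cells held 33.4%. Its log2 ratio was 2.22 with cells weighted equally. Without cells that held markers of other cell types, by the sum given for Nkain4 below, it was 2.28.

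Spon2, encoding the matrix protein mindin, had 52.0% of its WT UMIs in 5 of 261 cells and 17.9% of its GKO UMIs in 5 of 652 cells. It stood at 55.7 CPM in WT and 159 CPM in GKO (log2 ratio 1.51, 1.26 to 1.77) and was found in 6.75% and 15.5% of thinned cells, against 3.54% and 5.23% of hormone-rule cells. Wisp2 and Nov, encoding 2 matricellular proteins of the CCN family, were at 12 and 56 CPM (log2 ratio 2.22, 1.69 to 2.79) and at 12.4 and 51.8 CPM (2.06, 1.54 to 2.63). Thinned cells with a UMI numbered 1.98% and 7.83% for Wisp2 and 1.59% and 5.71% for Nov, and at most 0.30% of hormone-rule cells had either. Neither was particular to fibroblast-rule cells, since pericyte-rule cells carried Wisp2 at 19.7 and 61.0 CPM (1.63, 0.86 to 2.49) and endothelial-rule cells carried Nov at 26.2 and 62.9 CPM (1.26, 0.93 to 1.60). Nkain4, encoding a partner of the sodium pump, was at 42.9 and 123 CPM (1.52, 1.23 to 1.82), with 52.6% of its WT UMIs in 5 cells. Its ratio was under 2-fold with cells weighted equally (0.85) and without cells that held markers of other cell types (0.98), here cells with 0.1% or more of their UMIs in pericyte, macrophage, lymphocyte, neutrophil, glial, mesothelial and ductal markers together. Leaving out the same cells moved Nov to 1.37, and 66.7% of its WT UMIs in all cells lay in 5 cells.

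Lbp, encoding the lipopolysaccharide-binding protein of the acute phase, was found in more thinned cells than Wnt4, Spon2, Wisp2, Nov or Nkain4, although it was named through its list and not by its ratio. It stood at 115 and 308 CPM (log2 ratio 1.42, 1.24 to 1.60), with a UMI in 15.5% of WT and 36.1% of GKO thinned cells. Gatm, encoding the first enzyme of creatine synthesis, was at 16.6 and 79.7 CPM (2.27, 1.82 to 2.75), with 93.2% of its WT UMIs in 5 cells, but its share of thinned cells, 1.19% and 4.08%, was under the 6.18% and 4.67% of hormone-rule cells. Without cells that held markers of other cell types its ratio was just under 2-fold. Slpi, encoding a secreted protease inhibitor, had all its UMIs in 5 or fewer cells of either library, so its log2 ratio of 2.31 rested on single cells.

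Several of the higher genes stood far higher in the cells with mural genes. Tinagl1, encoding a basement membrane glycoprotein, Lmcd1, encoding a LIM-domain cofactor, and Lmod1, encoding a smooth muscle actin nucleator, had log2 ratios of 1.93, 1.81 and 1.5. In the 61 GKO cells with mural genes Tinagl1 stood at 1295 CPM against 59.0 CPM in the rest, and Lmcd1 at 465 against 15.3 CPM. Without the mural-gene cells of both libraries the ratios were still past 2-fold, at 1.73 for Tinagl1, 1.72 for Lmcd1 and 1.05 for Lmod1. When all cells with 0.1% or more of markers of other cell types were left out, Lmcd1 turned to -1.38 and Lmod1 to -0.16, and Tinagl1 dropped to 0.13. Lmcd1 was already at 4.64 CPM in the 251 WT cells outside the mural-gene set. Its turned ratio therefore rests on few UMIs, and no interval was computed for it.

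Among the lower genes named by the rule, Zbtb16 (ENSMUSG00000066687), encoding a zinc finger repressor that glucocorticoids induce, was the one least carried by single cells. It stood at 91.5 CPM in WT and 27.4 CPM in GKO (log2 ratio -1.74, -2.04 to -1.44), with a UMI in 18.7% and 4.08% of thinned cells against 0.81% and 0.21% of hormone-rule cells. The 5 highest WT cells held 11.5% of its UMIs. It was lower in GKO in the 4 other cell groups too, by log2 ratios of -1.79 in pericyte-rule, -2.41 in endothelial-rule, -1.57 in macrophage-rule and -2.11 in hormone-rule cells.

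Igfbp2, encoding an IGF-binding protein, was at 187 and 49.5 CPM (-1.92, -2.14 to -1.71), in 10.3% and 2.94% of thinned cells, and 5 cells held 42.8% of its WT UMIs and 46.8% of its GKO UMIs. No UMI of it was seen in pericyte-, endothelial- or macrophage-rule cells of either library, where 3 UMIs would have been at most 3.70 CPM. Col12a1, encoding a collagen that binds to fibres, was at 67.4 and 19.7 CPM (-1.78, -2.13 to -1.43), in 11.5% and 3.92% of thinned cells.

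Ctla2a, encoding an inhibitor of cysteine proteases, was at 248 and 77.4 CPM (-1.68, -1.86 to -1.50) and had a UMI in 24.2% and 8.32% of thinned cells against 0.69% and 0.18% of hormone-rule cells. In endothelial-rule cells, where it was most abundant, its log2 ratio was -0.04 (-0.10 to 0.01). It was -1.46 (-1.75 to -1.17) in hormone-rule cells, -2.79 (-6.10 to -0.40) in pericyte-rule cells and 2.02 (1.07 to 3.13) in macrophage-rule cells. Pamr1, encoding a secreted serine protease-like protein, was at 56.1 and 18.1 CPM (-1.63, -2.01 to -1.26).

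Other low values came from few WT cells. The 5 highest of the 261 WT cells held 68.3% of the Cxcl2 UMIs, 93.8% of Cxcl9, 53.5% of Clu, 61.1% of Srgn, 69.9% of Stmn1 and 68.6% of Cd74. Clu, encoding the secreted chaperone clusterin, was at 1419 and 248 CPM (-2.52, -2.61 to -2.43), and had a UMI in 9.92% and 7.5% of thinned cells. Srgn and Cd74 encode a granule proteoglycan and the invariant chain of MHC class II, both ample in leukocytes. The MHC class II genes H2-Aa and H2-Eb1 had 81.4% and 76.8% of their WT UMIs in 5 cells, and with cells weighted equally their ratios were -0.67 and -0.64. Over the whole comparison, 5 cells held at least 30% of the UMIs of the higher library for 10 of the 37 genes higher in GKO, where they were 5 of 652 cells, and for 23 of the 36 lower, where they were 5 of 261, so these counts cannot be set against each other. Weighting every cell equally left 30 of the 37 and 20 of the 36 past 2-fold. Leaving out cells with 0.1% or more of markers of other cell types left 16 of the 37 and 31 of the 36, and 8 of the 37 and 1 of the 36 turned their direction.

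General fibroblast genes had a median of 0.19, with 9 of 15 higher and 6 lower and none past 2-fold. Ly6a, encoding the stem cell antigen Sca-1, stood out within them at 533 and 997 CPM (0.90, 0.82 to 0.99), in 34.9% and 58.6% of thinned cells. The matrix genes were gone through by role, starting with the collagens. Fibrillar collagens, which form the load-bearing fibres, were slightly lower, with 5 of 6 lower in GKO (median log2 ratio -0.14) and none of the 6 past 2-fold. Col3a1, the most abundant, stood at 6565 and 5644 CPM (-0.22, -0.24 to -0.19), and Col1a1 had a log2 ratio of -0.34 (-0.38 to -0.31). Col5a3 alone was higher, at 139 and 207 CPM (0.57, 0.40 to 0.74). Collagens of networks and those that decorate fibres split 7 to 9 (median -0.03), and 1 of the 12 in the comparison, Col12a1, was past 2-fold. Col18a1, the source of endostatin, was at 53.4 and 104 CPM (0.97, 0.70 to 1.24), whereas Col4a5 and Col4a6, which lie side by side on the X chromosome and encode chains of basement membrane collagen, were at 128 and 67.8 CPM (-0.91) and at 34.6 and 19.0 CPM (-0.87).

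Enzymes that fold, trim or cross-link collagen held still as a list, with 10 of 17 higher, 7 lower, a median of 0.05 and none of 14 in the comparison past 2-fold. Serpinh1, the collagen chaperone, was at 2575 and 2491 CPM. The exception in size was Plod2, which hydroxylates collagen lysines for tight cross-links, at 84.7 and 50.9 CPM (-0.73, -0.99 to -0.48). Small leucine-rich proteoglycans, which bind collagen and growth factors, were higher in 7 of 9 (median 0.27). Dcn and Lum, with log2 ratios of 0.44 and 0.16, selected the cells and their levels move with the rule, and of the other 7 genes 5 were higher and 2 lower. Biglycan, encoded by Bgn, was at 4153 and 3783 CPM (-0.13).

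The elastic fibre genes moved apart from each other. Elastin itself, Eln, was at 748 and 363 CPM (-1.05, -1.13 to -0.96), in 54.0% and 37.0% of thinned cells. The microfibril genes Mfap4 (987 and 500 CPM, -0.98), Mfap2 (278 and 166 CPM, -0.75) and Fbn2 (105 and 54.4 CPM, -0.95) were lower with it. Fbn1, encoding the main adult fibrillin, was at 440 and 406 CPM (-0.11), and Fbln2 and Efemp1, encoding a pair of fibulins, were higher at 161 and 257 CPM (0.68) and 184 and 251 CPM (0.45). Over the list 7 of 16 were higher and 9 lower, with a median of -0.03, and Eln was the 1 of 15 in the comparison past 2-fold.

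Adhesive and matricellular proteins were higher in 13 of 21 (median 0.15), close to the background of all genes. Of the 18 in the comparison 2 were past 2-fold upward, Nov and Spon2, and 1 downward, Postn. Postn, encoding periostin, a protein of developing and healing matrix, was at 402 and 149 CPM (-1.44, -1.57 to -1.30) and had a UMI in 34.5% of WT and 17.8% of GKO thinned cells. Its ratio was larger in size, at -2.43, when cells with markers of other types were left out. Sparc, the most abundant of the list, was level at 9864 and 9842 CPM (0.00, -0.02 to 0.02). Sparcl1 and Smoc2, its relatives, were at 743 and 1026 CPM (0.47) and at 175 and 313 CPM (0.84).

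Among matrix proteases 11 of 16 were higher and 5 lower (median 0.20), none of 11 in the comparison past 2-fold. Htra3 and Prss23, encoding secreted serine proteases, were at 370 and 642 CPM (0.80, 0.69 to 0.90) and 323 and 534 CPM (0.73, 0.62 to 0.84), in 43.7% and 59.9% and in 40.5% and 55.6% of thinned cells. Mmp2, the gelatinase of resting fibroblasts, was at 628 and 520 CPM (-0.27). Of the protease inhibitors 8 of 13 were higher (median 0.18), a share close to that of all genes. Serpine2, encoding protease nexin-1, was at 207 and 329 CPM (0.67), and Timp2, the partner of Mmp2, at 982 and 1222 CPM (0.32).

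Contractile and myofibroblast genes were higher in 12 of 15 (median 0.62), and of the 12 in the comparison 4 were past 2-fold upward, Tagln, Actg2, Myh11 and Lmod1, and 1 downward, Postn. They summed to 3665 and 5541 CPM, while the 5 highest cells held 27.4% and 10.5% of it. This list moved with the cells that carried mural genes. With called doublets left out the median was 0.68, and with cells weighted equally 0.54. Without the cells whose pericyte sum was at least 0.3%, it was 0.18. Without cells with 0.1% or more of the marker sum described for Nkain4, it was -0.64. Tagln was then at -1.18 and Actg2 at -0.97. The pericyte and smooth muscle markers share Myh11 with this list, so a filter that uses them acts in part on the list itself. With cells weighted equally Tagln was at 0.92, under 2-fold. The share of thinned cells with a Tagln UMI, 20.6% in WT and 18.6% in GKO, was not higher in GKO although its CPM was. Tnc and Cthrc1, which mark wound and scar fibroblasts, were the further lower members beside Postn.

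Genes of adventitial fibroblasts were higher in 12 of 15 (median 0.41) and genes of parenchymal fibroblasts in 15 of 15 (median 0.44), none of 14 of the latter past 2-fold. The parenchymal genes kept a positive median, from 0.28 to 0.60, under each alternative tried. They include Penk at 0.58, Gdf10 at 0.40, the chemokine gene Cxcl14 at 213 and 335 CPM (0.65) and Lpl, encoding lipoprotein lipase, at 850 and 1000 CPM (0.23). Igfbp5 was the 1 adventitial gene of 10 past 2-fold, at 285 and 643 CPM (1.18, 1.06 to 1.29, or 0.79 with cells weighted equally), and stood at 1852 CPM in the GKO cells with mural genes against 537 CPM in the rest.

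The 2 programmes were also looked at cell by cell. A sum of Pi16, Dpp4, Sema3c and Cd248 of at least 0.05% of UMIs, taken as adventitial, was found in 49 WT cells (18.8%) and 87 GKO cells (13.3%). A sum of Col15a1, Cxcl14, Smoc2 and Penk of at least 0.05%, taken as parenchymal, was found in 180 (69.0%) and 499 (76.5%). Both were passed by 37 WT cells (14.2%) and 68 GKO cells (10.4%). Since most cells passed the parenchymal sum, unrelated sums would overlap much too, so the overlap was not read as a result. Within each library the subsets differed in genes outside those sums. The adventitial sum was 0 in 117 WT and 323 GKO cells, and cells above 0 but under 0.05% were left out here. Cells at 0 were shallower, with a median of 8064 against 10578 UMIs in WT and 7026 against 9900 in GKO. Mfap5, encoding a microfibril glycoprotein, was at 972 CPM in WT cells with the adventitial sum and 215 CPM in cells where that sum was 0, and at 1366 and 266 CPM in GKO. Ly6c1 showed 165 against 6.22 CPM in WT and 306 against 19.0 CPM in GKO. Cd55 went the other way in WT, at 142 against 164 CPM, though not in GKO, at 179 against 99.7 CPM.

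Cells with the parenchymal sum were rich in Gsn, encoding the actin-severing protein gelsolin, at 10984 against 2237 CPM in WT and 16048 against 4255 CPM in GKO. Gdf10 and Inmt followed the same split, at 690 against 131 CPM and 530 against 146 CPM in WT. Acta2 lay on the other side, at 248 against 1269 CPM in WT and 205 against 4038 CPM in GKO. Across thinned cells the sums of the contractile and parenchymal lists had a Pearson correlation of -0.26 in WT (n = 252 cells) and -0.44 in GKO (n = 613 cells), and the adventitial and parenchymal lists of -0.16 and -0.44. Cells of a library share its preparation and each thinned cell has a fixed total, so these correlations are descriptions.

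Chemokines, which draw leukocytes, were lower in 10 of 14 (median -0.67), and 4 of 12 were past 2-fold downward, Ccl2, Cxcl2, Cxcl9 and Cxcl10. Their summed level was 5530 and 3687 CPM, with 37.4% of the WT sum and 14.5% of the GKO sum in 5 cells. Much of that sum was Cxcl13, the most abundant member, at 1979 and 1156 CPM, with 73.0% and 45.2% of its UMIs in 5 cells. Macrophage-rule cells held the same list at 8889 and 5747 CPM. In fibroblast-rule cells macrophage and leukocyte markers were lower as well, in 8 of 9 (median -1.36, or -0.11 with called doublets left out). The part of such cells in the chemokine values was not tested. Ccl21a was not in the list, and all its WT UMIs lay in 5 or fewer cells (log2 ratio -11.5). Taken cell by cell in fibroblast-rule cells, the chemokine values ran the other way. The median chemokine share of a cell's UMIs was 0.159% in WT and 0.204% in GKO, and 65.5% of WT and 78.8% of GKO cells held more than 0.1%. Cxcl1, a ligand for neutrophils, was the most widely found of the lower ones, at 991 and 578 CPM (-0.78, -0.85 to -0.70), in 41.7% and 30.7% of thinned cells. Ccl2, the monocyte chemokine, was at 531 and 178 CPM (-1.57, -1.69 to -1.46), but in 10.3% and 10.1% of thinned cells, and 60.6% of its WT UMIs lay in 5 cells. With cells weighted equally it was just under 2-fold. Cxcl10, which interferon induces, was at 200 and 85.2 CPM (-1.23). Cxcl12, the retention signal for blood progenitors and lymphocytes, was level at 544 and 563 CPM (0.05), and Ccl11, encoding the eosinophil chemokine eotaxin, was higher at 379 and 503 CPM (0.41, 0.31 to 0.51).

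Cxcl1 and Cxcl2 lie next to each other on chromosome 5. Of the 10 chemokines whose promoters were searched, they were those with a form of the NF-kB site in the promoter window. The site was spelled GGGA, any base, then TTTCC. Of 10 chemokine promoters in the RefSeq table, 2 held it on either strand between 250 bases before and 50 bases after the transcription start, against 0.411% of all 32851 promoters. The letters are a match and not a measured site. Both stretches are shown 5′ to 3′ on the + strand of GRCm38.p6 with the match in capitals, at chr5:90891144-90891213 for Cxcl1 and chr5:90903772-90903841 for Cxcl2, and the matches begin 71 and 97 bases before the start of the gene.
Cxcl1: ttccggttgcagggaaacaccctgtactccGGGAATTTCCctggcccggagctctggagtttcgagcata
Cxcl2: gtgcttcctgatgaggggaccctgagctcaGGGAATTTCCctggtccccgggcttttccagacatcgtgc
The genes holding these stretches were both lower in GKO, by log2 ratios of -0.78 for Cxcl1 and -4.15 for Cxcl2. Cxcl9 and Cxcl10 were lower too and had no such letters in their windows. Ccl2, also past 2-fold downward, was not among the promoters searched.

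Of the cytokine and acute-phase genes 10 of 16 were higher (median 0.33), and of 7 in the comparison Lbp was past 2-fold upward and Ptgs2, encoding the inducible cyclooxygenase, past 2-fold downward at 105 and 49.7 CPM (-1.08, -1.32 to -0.84), or -0.75 with cells weighted equally. Il6 was at 55 and 83.8 CPM (0.61, 0.34 to 0.89) and Il33, encoding an alarmin of stromal cells, at 126 and 89.0 CPM (-0.50). Complement genes were higher in 10 of 12 (median 0.37). C4b was at 410 and 670 CPM (0.71, 0.61 to 0.81), in 40.1% and 49.4% of thinned cells. C3, the central component, was at 1348 and 1553 CPM (0.20), and the inhibitor gene Serping1 at 2031 and 2570 CPM (0.34). Clu, which restrains the terminal complex, was the 1 of 11 past 2-fold, downward.

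MHC class I and interferon genes were higher in 20 of 24 (median 0.31), none of the 18 in the comparison past 2-fold. The class I heavy chains H2-K1 and H2-D1 were close to level at 1138 and 1164 CPM (0.03) and 1058 and 1222 CPM (0.21), and as near copies of each other their reads can be split with error. Ifit1, a sensor of viral RNA, stood at 9.79 and 31.6 CPM (1.69, 1.09 to 2.34) and Ifi27 at 284 and 415 CPM (0.55). Complement and class I sums had a correlation across cells of 0.49 in WT and 0.36 in GKO.

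Growth factor genes were higher in 23 of 36 (median 0.12), close to the background of all genes. Igf1 was at 399 and 265 CPM (-0.59, -0.71 to -0.48), and Gas6, the ligand of the Axl receptor family, at 700 and 1052 CPM (0.59, 0.51 to 0.66). Inhba, encoding an activin chain, was the 1 of 19 past 2-fold, downward, at 50.8 and 24.6 CPM (-1.05), and Angptl4, an inhibitor of lipoprotein lipase, was at 233 and 134 CPM (-0.79). The IGF-binding proteins were abundant, with a summed level of 8804 and 10979 CPM, led by Igfbp7 at 4626 and 5960 CPM (0.37). This was not particular to fibroblast-rule cells. Endothelial-rule cells held the list at 11099 and 12085.5 CPM and pericyte-rule cells at 6229 and 6979 CPM. Igfbp4 was at 1846 and 2430 CPM (0.40) and Igfbp3 at 681 and 479 CPM (-0.51).

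Wnt and bone morphogenetic protein modulators split 8 to 13 (median -0.07), with 2 of 9 in the comparison, Wnt4 and Rspo3, past 2-fold upward. Rspo3, which amplifies Wnt signals at the receptor, was at 46.3 and 92.7 CPM (1.00, 0.72 to 1.30), in 7.54% and 15.3% of thinned cells, and at a ratio of 0.62 with cells weighted equally. Chrdl1, an antagonist of bone morphogenetic proteins, was at 13.9 and 37.4 CPM (1.43, 0.92 to 1.97), whereas Sfrp2, a secreted Wnt-binding protein, was at 33.1 and 11.6 CPM (-1.52, -2.0 to -1.04). Receptor genes were higher in 24 of 32 (median 0.19), none of 23 in the comparison past 2-fold. Ramp2, a partner of the adrenomedullin receptor, was at 217 and 312 CPM (0.52) and Nr3c1, the glucocorticoid receptor, at 93.3 and 132 CPM (0.49).

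Transcription factors of mesenchymal cells had a median of 0.06, with 17 of 28 higher and none of 18 in the comparison past 2-fold. Prrx1 and Ebf1 were at 248 and 329 CPM (0.41) and at 287 and 395 CPM (0.46), and Klf4 at 556 and 353 CPM (-0.66). Glucocorticoid-responsive genes did not move as one, with 6 of 14 higher and 8 lower (median -0.11). Beside Zbtb16, the feedback inhibitor gene Errfi1 was past 2-fold but upward, at 199 and 398 CPM (1.00, 0.87 to 1.14), in 24.2% and 41.4% of thinned cells, while Tsc22d3 and Fkbp5 stood at 523 and 421 CPM (-0.31) and 44.4 and 42.5 CPM (-0.06).

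Lipid and steroid genes were higher in 17 of 21 (median 0.42). Hsd11b1, which regenerates active glucocorticoid, was at 378 and 620 CPM (0.71, 0.61 to 0.81), in 43.3% and 54.3% of thinned cells, Gpx3, a secreted peroxidase, at 883 and 1394 CPM (0.66) and the transporter gene Abca8a at 258 and 413 CPM (0.68). Apoe and Apod, encoding lipid carriers, were lower at 4730 and 4071 CPM (-0.22) and at 257 and 132 CPM (-0.96). Of the 17 in the comparison Gatm and Fabp4 were past 2-fold, Gatm no longer so without cells that held markers of other cell types. Fabp4, a fatty acid chaperone of capillary endothelium, was at 21.8 and 72 CPM (1.72), in 4.37% and 5.55% of thinned cells. The 5 highest cells held 48.3% of its WT and 36.3% of its GKO UMIs, and endothelial-rule cells held it at 2052 and 2174 CPM.

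Gsn, among the most abundant genes of these cells, was at 7478 and 12881 CPM (0.78, 0.76 to 0.81). It varied widely between cells of the same library as well. In thinned cells its variance was 24.6 times its mean in WT and 28.3 times in GKO, where sampling alone would give 1. Genes of comparable or higher spread were few. Cxcl13, the B cell chemokine, stood out with 67.3 and 43.9, because 5.16% of WT and 5.71% of GKO thinned cells had any UMI of it while its level was 1979 and 1156 CPM. The 5 highest cells held 73.0% and 45.2% of those UMIs. Its log2 ratio of -0.78 turned to 1.53 in cells with a marker sum of at least 0.5%. Clu went with it across cells (r = 0.74 in WT and 0.51 in GKO).

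Mgp, encoding matrix Gla protein, an inhibitor of calcification, and Cst3, encoding cystatin C, were also uneven, with variances 18.3 and 18 times and 14.6 and 12.7 times the mean. They went together from cell to cell (r = 0.59 and 0.51), and Gsn followed Mgp (0.53 and 0.42). Tagln and Acta2 formed a further pair (0.66 and 0.90). Ttr varied as strongly, but it is an endocrine transcript found in 76.8% and 75.6% of thinned hormone-rule cells, and 81.5% and 78.5% of its UMIs in fibroblast-rule cells lay in 5 cells.

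Stress genes varied widely and together among the cells. Immediate early genes, which are switched on within minutes of a stimulus such as tissue dissociation, ranged from 1 to 193 UMIs per 2000 in WT (median 39) and from 0 to 184 in GKO (median 28). Heat shock genes ranged from 2 to 249 (median 56) and from 2 to 272 (median 39). The 2 sums had a correlation across cells of 0.76 in WT and 0.82 in GKO, the highest of the list pairs compared. Between genotypes 18 of 23 immediate early genes were lower in GKO (median -0.26), with 1 of 20, Ier3, past 2-fold at 347 and 162 CPM (-1.10, -1.23 to -0.96, or -0.78 with cells weighted equally), and 12 of 12 heat shock genes were lower (median -0.31), none of the 12 past 2-fold. Fos and Jun, which form the AP-1 factor, were at 3506 and 3059 CPM (-0.20) and 4005 and 3380 CPM (-0.25).

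Hspa1a and Hspa1b, near-identical genes for the inducible 70-kDa chaperone whose reads can be split with error, stood at 6536 and 5771 CPM (-0.18) and 5345 and 4764 CPM (-0.17). Hspb1, the small heat shock protein gene, was at 2382 and 2077 CPM (-0.20) and Hsph1, a nucleotide exchange factor for the 70-kDa chaperones, at 687 and 486 CPM (-0.50, -0.59 to -0.42). The letters GAANNTTC, an inverted pair of heat shock element units and its own reverse complement, were in the promoter window of 7 of the 9 heat shock genes in the table, against 7.86% of the 32851 promoters. Hspe1 and Hspd1 lie head to head and share this stretch of the genome. The surroundings of the matches in the most variable chaperone genes are shown in the direction of each gene, with the matches in capitals, at chr17:34972223-34972290 (- strand) for Hspa1a and chr5:135887772-135887859 (+ strand) for Hspb1 in GRCm38.p6. The match of Hspa1a begins 104 bases before the start of the gene, and the 2 matches of Hspb1 begin 117 and 97 bases before it.
Hspa1a: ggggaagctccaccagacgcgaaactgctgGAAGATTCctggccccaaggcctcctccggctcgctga
Hspb1: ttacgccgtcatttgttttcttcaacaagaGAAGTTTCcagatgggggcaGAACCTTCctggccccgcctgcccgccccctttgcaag
A match of these letters says nothing on its own of binding in these cells, and Hspa5 and Dnajb1, 2 chaperone genes of the table without it in the window, were lower as well, at 1306 and 1020 CPM (-0.36) and 1992 and 1642 CPM (-0.28).

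**Figure D4:**
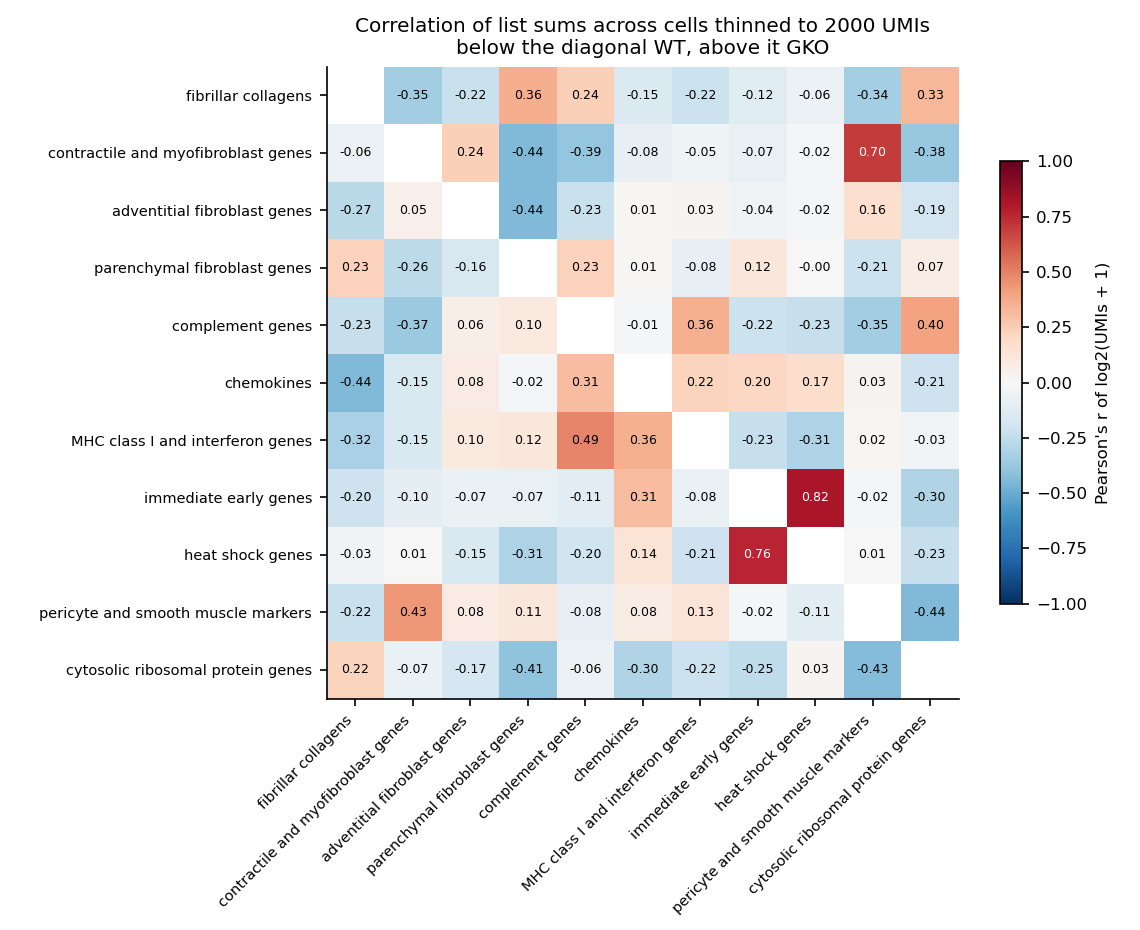
Pearson's r of log2(UMIs + 1) between the sums of 11 gene lists across fibroblast-rule cells thinned to 2000 UMIs, with the 252 WT cells below the diagonal and the 613 GKO cells above it. Immediate early and heat shock sums go together in both libraries, at 0.76 and 0.82, and contractile and parenchymal sums run against each other.

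Ribosomal protein genes were lower in 82 of 83 (median -0.29) and summed to 187596 CPM in WT and 150467 CPM in GKO. With hormone, ribosomal protein and mitochondrial genes left out of the total, the counts past 2-fold were 36 higher and 51 lower. Cell cycle genes were lower in 10 of 10 (median -1.75), with a summed level of 203 and 70.2 CPM. Their share was small in either library, above 0.1% of UMIs in 6 WT cells (2.30%) and 0.46% of GKO cells, and the 5 highest WT cells held 51.8% of the sum. None of them reached the comparison.

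Markers of other cell types were followed because few foreign cells can move a sum. Pericyte and smooth muscle markers were higher in 9 of 10 (median 0.64), summed to 676 and 1170 CPM and were led by Rgs5 at 163 and 442 CPM. Mesothelial markers, which define the lining of the abdominal cavity, were higher in 8 of 9 (median 1.37). They summed to 96.7 and 269 CPM, with 65.4% and 35.2% of the sum in 5 cells. Ductal markers were higher in 9 of 10 (median 2.01), summing to 58.7 and 290 CPM with 39.7% and 64.5% in 5 cells. With called doublets left out the medians were 0.68 for pericyte and smooth muscle, 0.92 for mesothelial and 0.20 for ductal markers. Krt19, encoding a keratin of both cell types, had a UMI in 0.397% of WT and 3.92% of GKO thinned cells, and Wt1, encoding a transcription factor of the mesothelium, in 3.57% and 5.55%. Macrophage and leukocyte markers were lower in 8 of 9 (median -1.36), at 105 and 46.2 CPM, of which 5 cells held 70.6% and 33.5%, and the median was -0.11 with called doublets left out and -0.31 over 7 members without cells that held markers of other cell types, a set chosen with these markers. Endothelial markers summed to 102 and 83.6 CPM with Cdh5 at 0 in both libraries, acinar markers to 516 and 361 CPM, lymphocyte markers to 34.3 and 17.7 CPM, hormone genes to 7929 and 6890 CPM and endocrine granule markers to 841 and 1048 CPM. Of the neutrophil, glial and adipocyte markers, only S100b reached 20 UMIs over both libraries, and Ngp, Sox10 and Adipoq were at 0. The part of such cells in the named differences was not tested, beyond the values given with and without them.

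**Figure D5:**
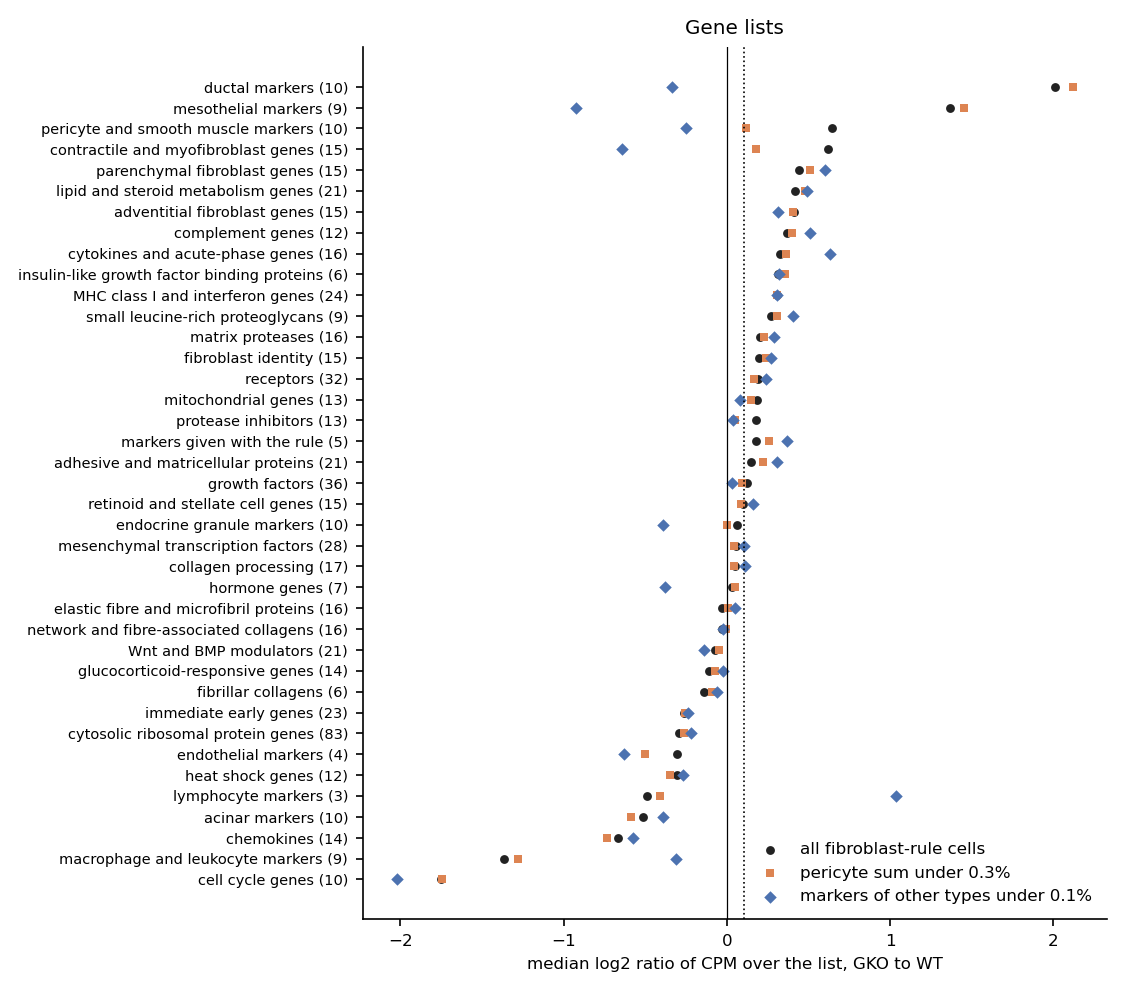
Median log2 ratio of CPM, GKO to WT, for each gene list with at least 3 members of 20 or more UMIs (their number in brackets), over all fibroblast-rule cells (black), without cells whose pericyte sum was at least 0.3% (orange) and without cells that held 0.1% or more of markers of other cell types (blue). The dotted line is the median of 0.10 over 11557 genes. Contractile, pericyte, mesothelial, ductal, hormone, endocrine granule, lymphocyte and elastic fibre lists cross 0 in the strictest set, which was chosen with the pericyte, mesothelial, ductal, lymphocyte and macrophage markers and leaves 1 lymphocyte and 6 mesothelial genes with a value, and parenchymal, lipid and complement genes do not.

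The deleted gene itself was barely present in these cells. Ghrl had 11 UMIs in WT and 0 in GKO fibroblast-rule cells, or 4.14 CPM against a limit of 0.527 CPM that a count of 0 allows, and 531 and 3 UMIs in hormone-rule cells. At 4.03 CPM the WT hormone-rule cells had about the same level, and WT pericyte-, endothelial- and macrophage-rule cells held 3.70, 3.90 and 6.41 CPM. The part of free RNA in these counts was not tested. Whether the sequenced 3′ end of Ghrl lies in the deleted stretch was not checked, which bears on what the 0 in GKO means. Ghsr, encoding the ghrelin receptor, had 0 UMIs in WT and 3 in GKO fibroblast-rule cells, where a count of 0 allows up to 1.13 CPM in WT. The 3 GKO UMIs amount to 0.527 CPM, against 5.06 CPM in GKO hormone-rule cells.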

How the data were processed

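Per the file headers and the labels, the authors mapped reads of the 3′ v3.1 droplet libraries to mm10 with Cell Ranger 5.0.1 and deposited whole-number UMI counts per gene and barcode, without removal of free RNA. Here barcodes were read from those counts (7792 WT, 7289 GKO), fibroblast-rule cells were taken by the rule in the text, and UMIs were summed per library and divided by the total of the sum (CPM). No test was run between genotypes because each is 1 pooled library. The members, gene lists and cell groups were chosen with earlier results of these data known. Named genes were the 5 given markers, the 12 largest and 12 smallest ratios (a minimum of 50 CPM in either library, of 20 UMIs per library and of 200 over both, other cell types' markers left out), the 15 genes highest over other cells, the 12 of highest variance to mean, and Ghrl and Ghsr. List members were further named for their size, role or level after their values were seen. Doublets were scored with scrublet in scanpy 1.11.5 (highest 7.6% of each library) and kept. In list medians a gene with 0 UMIs in 1 library was set at the bound that 3 UMIs give, except after free RNA subtraction. Alternatives were 7 planned cell selections, 1 chosen after seeing the data (pericyte sum under 0.3%), and 7 of scaling, weighting, free RNA and filters. TMM used edgeR 4.0.16 under R 4.3.3. Other steps used Python 3.11.15, numpy 2.4.6, scipy 1.17.1 and pandas 2.3.3, and the counting steps were tested on simulated data. Promoter sequences came from RefSeq.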

Additional observations from a re-analysis of the deposited data

Results flagged for a closer look

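Barcodes outside the limits on genes or mitochondrial transcripts were not used, and some of them held the selecting markers. A sum of Dcn, Lum and Clec3b of at least 0.3% was found in 7 such WT barcodes and 24 such GKO barcodes, of which 3 and 15 had under 500 genes and 4 and 9 over 10% mitochondrial transcripts. Sst, the somatostatin gene, ran in opposite directions between cell groups, with a log2 ratio of 1.03 in fibroblast-rule cells against -1.66 in pericyte-rule and -1.73 in endothelial-rule cells. The difference was not tested, and 68.6% of the Sst UMIs of GKO fibroblast-rule cells lay in 5 cells. Without cells that held 0.1% or more of markers of other cell types its ratio in fibroblast-rule cells was -0.66, the same direction as in the other groups named.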

How the results depend on the processing

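No paired analysis was possible because each genotype is 1 library. Under the alternatives, 725 of 741 values of the 53 named genes kept their direction (41 genes in every one), as did 514 of 544 values of the 39 list medians (28 lists in every one). Leaving out cells with 0.1% or more of other cell types' markers gave shares of 2.90% in WT and 7.45% in GKO, 21 genes higher and 36 lower, and turned Lmcd1 to -1.38, Lmod1 to -0.16 and Tagln to -1.18. The Lmcd1 value rests on few UMIs. The GKO share was 12% with at most 5% mitochondrial transcripts, 9.33% with a marker sum of at least 0.5% and 9.31% without cells of a pericyte sum of 0.3% or more, an alternative chosen after seeing the data. The marker sum of at least 0.5% gave 24 genes higher and 25 lower and turned Cd74 to 0.44 and Cxcl13 to 1.53. At least 50 UMIs with no CPM limit gave 248 genes higher and 163 lower. Median-of-ratios factors gave 28 and 42. The causes of these moves were not tested. Genes with few UMIs had wide intervals, such as -4.98 to -2.13 for the log2 ratio of Lrat.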
